A study of Mus musculus with 6 samples.

Results

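The genes described here are 36 genes of glycolysis and of the response to low oxygen, chosen by name among the 23449 genes of the deposited table. By role they are 17 glycolytic enzymes, 3 transporters of sugar and lactate, 3 switches of glycolytic flux, 2 alpha subunits of the hypoxia-inducible factors (HIF) and 11 HIF targets outside central metabolism. All 36 passed the filter on low counts. Messenger RNA was sequenced in 6 cultured mammary cell lines from female FVB/N mice, 3 with the genotype EIC/WT and 3 with the genotype 16IC/WT. As background that the labels do not state, EIC lines carry wild-type ErbB2 (HER2), a receptor tyrosine kinase, under an inducible promoter, and 16IC lines carry an inducible HER2 splice form that lacks exon 16. Every line was kept in doxycycline, the inducer, at 10 ug/mL with 10% serum, EGF, insulin and pituitary extract, so no line shows the level without the inducer. EIC 1, 2 and 3 are the lines titled EIC_4026, EIC_NT and EIC_7559, and 16IC 1, 2 and 3 are those titled 16IC_1984, 16IC_4982 and 16IC_7391. Values of a group are always listed in that order. Each line is 1 library, and no source used here gives its animal of origin or its oxygen level, so a p-value measures only the spread between these 6 samples.

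Glycolysis splits glucose into pyruvate in the cytosol, and many tumour cells turn that pyruvate into lactate and export it even when oxygen is at hand. HIF is a dimer of an alpha and a beta subunit. When oxygen is plentiful, prolyl hydroxylases of the EGLN family mark the alpha subunit for destruction, and when oxygen is scarce the dimer binds DNA at short elements with the core ACGTG or GCGTG and raises the mRNA of most glycolytic enzymes, of the glucose carrier Slc2a1 and of genes for blood vessel growth, acid balance, collagen and mitophagy. ErbB2 signalling and Myc can raise many of the same enzymes, so the glycolytic genes and the remaining HIF targets need not move together.

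The 250 bases before the start of 3 of these genes are shown because Slc16a1 was the gene with the clearest difference between the groups, Ldha an abundant enzyme mRNA close to the threshold, and Bnip3 a HIF target outside metabolism whose groups did not overlap. Sequences are RefSeq's for build GRCm38.p6, written 5′ to 3′ on the strand of the gene, and capitals mark ACGTG or GCGTG on either strand, neighbours that overlap being joined. Slc16a1 lies at chr3:104638414-104638663 on the + strand and held 4 matches, where the palindrome CACGTG counts once on each strand. The first of 2 Ldha windows lies at chr7:46845554-46845803 on the + strand, inside the gene model of the deposited table, and held 5 matches. Bnip3 lies at chr7:138909507-138909756 on the - strand, reaches a few bases into the table's gene model and held 5 matches.
Slc16a1: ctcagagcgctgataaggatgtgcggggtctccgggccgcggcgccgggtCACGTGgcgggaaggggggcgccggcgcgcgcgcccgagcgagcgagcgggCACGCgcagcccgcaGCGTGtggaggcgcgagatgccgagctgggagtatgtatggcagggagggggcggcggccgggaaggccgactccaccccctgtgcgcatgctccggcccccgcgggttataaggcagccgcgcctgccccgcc
Ldha: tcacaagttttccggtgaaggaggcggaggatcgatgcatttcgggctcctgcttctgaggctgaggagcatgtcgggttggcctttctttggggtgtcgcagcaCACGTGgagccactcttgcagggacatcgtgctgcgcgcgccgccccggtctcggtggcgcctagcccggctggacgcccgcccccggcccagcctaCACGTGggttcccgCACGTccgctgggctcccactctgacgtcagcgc
Bnip3: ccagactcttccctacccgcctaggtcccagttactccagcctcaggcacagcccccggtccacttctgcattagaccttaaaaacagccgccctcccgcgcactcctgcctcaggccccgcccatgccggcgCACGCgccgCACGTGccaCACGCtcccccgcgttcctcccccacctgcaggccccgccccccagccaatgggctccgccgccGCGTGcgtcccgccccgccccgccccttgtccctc

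RefSeq gave such a window for 34 of the 36 genes, with no entry for Epas1 and Ndrg1. At least 1 match stood in 30 of the 34 genes (88.2%), against 61.9% of the 9852 genes tested here that have a window and 41.5% of all 27025 genes of the RefSeq table. Counted over windows, a match stood in 38 of 48 windows of these genes (79.2%), in 55.7% of the windows of tested genes and in 38.6% of all 32851 windows. Among the genes described below, 9 of 10 whose groups did not overlap and 21 of 24 whose groups overlapped held a match, shares of 90% and 87.5%. It stood in 14 of 17 glycolytic enzymes and 9 of 10 HIF targets. Both cores contain the pair CG, and the windows were not matched for how many such pairs they hold. These are letters in a window, and binding was not measured.

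Library totals ranged from 15621563 to 17468498 counts, and levels are given below as CPM, counts per megacount of the library size after TMM scaling. The lines differed in markers of cell state along with the group. Over 10 mesenchymal markers the summed level was 6603, 10641 and 7626 CPM in EIC and 779, 596 and 5016 CPM in 16IC. By this sum 16IC 3 was nearer to the EIC lines than to 16IC 1 and 16IC 2. Its largest parts in 16IC 3 were Vim (2099 CPM) and Fn1 (1511 CPM). Not every marker followed the sum. Sparc at 31.1, Twist1 at 19.7 and Itga5 at 30.6 CPM in 16IC 3 lay nearer to the other 16IC lines than to any EIC line. Over 10 epithelial markers the sums were 3343, 2586 and 3301 CPM in EIC and 9800, 9853 and 1719 CPM in 16IC. The keratins Krt8 and Krt18 of simple epithelium were abundant in all 6 lines (lowest 563 CPM). The epithelial adhesion gene Epcam lay at 0.46, 1.08 and 3.79 CPM in EIC and at 1160, 1345 and 51.1 CPM in 16IC. Of the 10 epithelial markers 1 was lower in 16IC, the keratin Krt19. It lay at 7.70, 198 and 10.1 CPM in EIC and at 0, 0 and 0.649 CPM in 16IC. Of 8 leukocyte markers 5 were in the table and summed to 12.5 to 47.7 CPM, mostly Cd68, with Ptprc at most 0.306 CPM. Endothelial markers summed to at most 4.16 CPM and red cell markers to at most 0.306 CPM, while the adipocyte list reached 22.2 CPM in EIC 1 and 42.2 CPM in EIC 3 through Fabp4. The part of cell state in the differences below was not tested. For many of the results that rest on 16IC 3, but not for all, a value without that line is given as well.

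Of the 36 genes, 28 had a fitted value lower in 16IC and 8 a higher one, whereas 50.3% of all 13698 tested genes were lower. The median log2 fold change (16IC over EIC) was -0.56 over the 36 genes and -0.004 over all tested genes. Only Slc16a1 passed an adjusted p of 0.05 in the quasi-likelihood test of edgeR (p adjusted after Benjamini and Hochberg), 1 of 36 (2.78%) where 2.45% of all genes passed, 1.2% lower and 1.25% higher in 16IC. At an unadjusted p under 0.05 stood 9 genes, all lower in 16IC (25%), against 22.7% of all genes and 10.1% in that direction. The groups did not overlap for 10 genes, all lower in 16IC: Gpi1, Pfkp, Pgk1, Pgam1, Eno1, Pkm, Ldha, Slc16a1, Bnip3 and P4ha1. In all tested genes the groups did not overlap in 31.4%, with 14.2% lower and 17.2% higher in 16IC. The counts of called and of non-overlapping genes thus lay near the background, and the lean was in the direction, which was down in each of the 10.

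**Figure D1:**
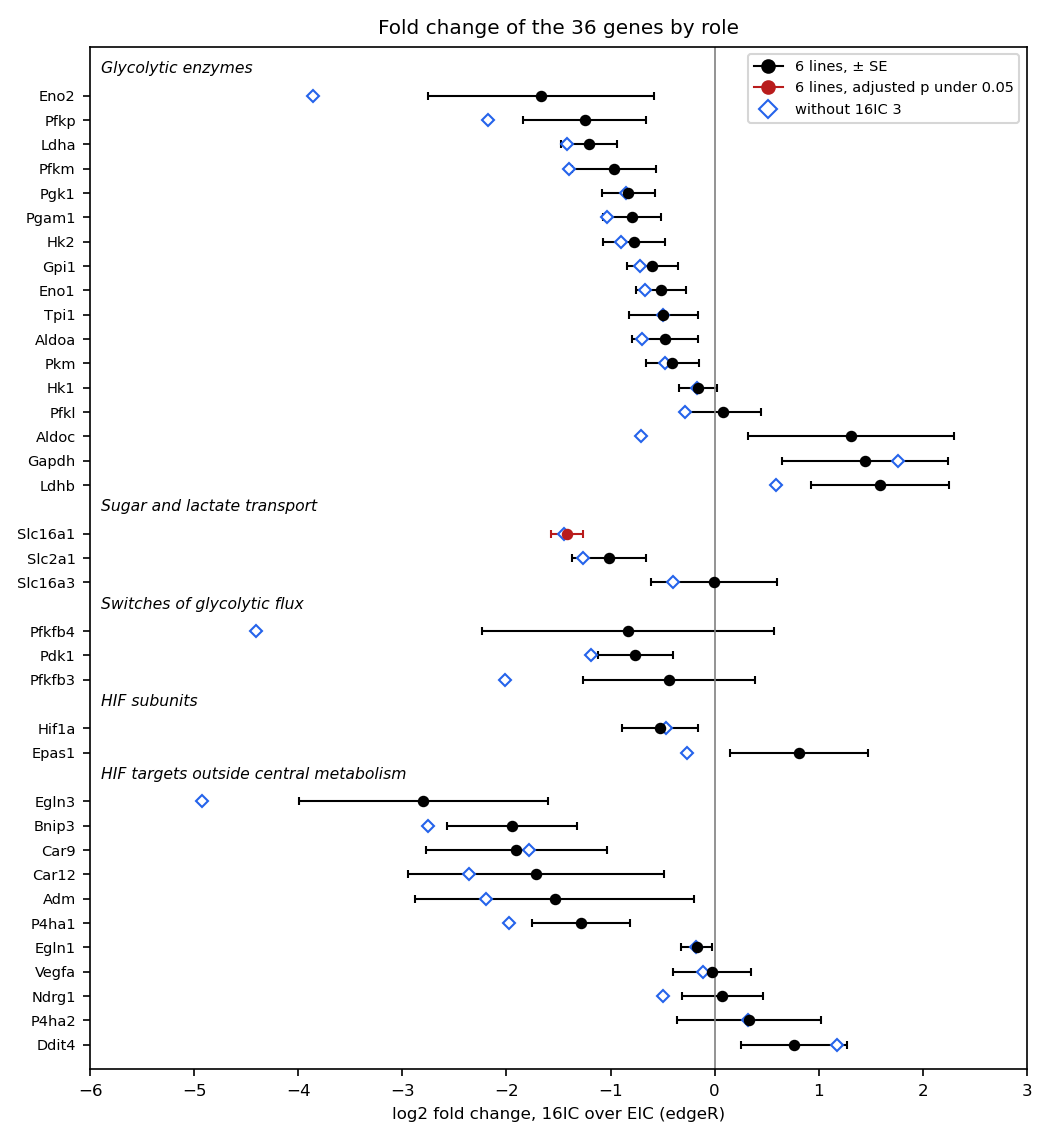
Fitted log2 fold change of each of the 36 genes, 16IC over EIC, by role, with its standard error over 6 lines (filled points) and the value without 16IC 3 (open diamonds). Most filled points lie left of 0, and only Slc16a1 (red) passed the test. The diamonds of Pfkfb4, Eno2, Egln3, Aldoc and Pfkfb3 lie far to the left of their points, that of Aldoc across 0.

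DESeq2 called 5 of the 36 genes, all lower in 16IC (Pgk1, Ldha, Slc16a1, Bnip3 and Egln3), where it called 15.3% of all genes and 7.04% in that direction. The authors' deposited table called the same 5 genes, against 8.63% of its 23449 genes. That share includes genes removed here by the filter on low counts, which all 36 passed, so its base is unlike that of the DESeq2 share. Limma-voom called Slc16a1 alone, against 2.1% of all genes. Leaving out 16IC 3, edgeR called 12 of the 36, 11 lower and Ddit4 higher, against a background that had itself grown to 13.4% of genes (6.82% lower and 6.6% higher). The 11 were Pfkp, Pgam1, Eno2, Ldha, Slc16a1, Pfkfb3, Pfkfb4, Pdk1, Bnip3, Egln3 and P4ha1. With EIC 1, EIC 3, 16IC 1 or 16IC 2 left out instead, edgeR called 0 of the 36 and at most 5 of all tested genes. Without EIC 2 it called Slc16a1 and Car9, with 282 genes called in all.

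Transport gave the clearest difference. Slc16a1 encodes MCT1, a proton-coupled carrier of lactate and pyruvate across the plasma membrane, and lies at chr3:104638668-104658462 on the + strand in the deposited table. Its level was 235, 227 and 237 CPM in EIC and 78.2, 92.3 and 90.6 CPM in 16IC. The 3 EIC lines lay close together and far above the 3 16IC lines, 16IC 3 included. In bulk RNA a smaller share of cells with a gene on and less of its RNA per cell cannot be told apart. Slc16a1 fell by 1.42 on the log2 scale (SE 0.15), from 233 ± 5.32 to 87 ± 7.71 CPM (SD, n = 3 each), with an adjusted p of 0.027 by edgeR's quasi-likelihood test. The fold hardly moved when any line was left out (log2 -1.47 to -1.35), but the adjusted p rose to between 0.139 and 0.16 in the edgeR test without EIC 1, EIC 3, 16IC 1 or 16IC 2, and was 0.0094 without 16IC 3.

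Slc2a1 encodes GLUT1, the glucose carrier of most dividing cells and a known HIF and ErbB2 responder. It stood at 547, 278 and 518 CPM in EIC and 152, 222 and 290 CPM in 16IC, so EIC 2 was slightly below 16IC 3 and the groups overlapped. Its log2 fold change was -1.02 (SE 0.36) and its adjusted p in edgeR 0.165. Slc16a3 encodes MCT4, the lactate exporter usually named as the HIF-induced form, and it was barely present, at 0.481 to 1.62 CPM over the 6 lines. By deposited FPKM, which corrects for gene length, Slc16a1 made up at least 98.7% of the summed Slc16a1 and Slc16a3 level in each line. The lactate carrier that differed was thus the abundant one of the pair in all 6 lines.

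Among the glycolytic enzymes 13 of 17 were lower in 16IC, with a median log2 fold change of -0.52 (-0.71 without 16IC 3). None of the 17 passed the edgeR test, 5 had an unadjusted p under 0.05, DESeq2 called 2 and limma-voom 0. Over all tested genes the same shares were 2.45%, 22.7%, 15.3% and 2.1%. In 7 of the 17 the groups did not overlap, each time with EIC above 16IC. Over all tested genes the groups did not overlap in 31.4%, and in 14.2% with EIC above 16IC. The 17 enzymes together took 1.31, 1.10 and 1.12% of all counts in EIC and 0.744, 0.776 and 0.952% in 16IC, that is 1.17 ± 0.114% and 0.824 ± 0.112% (SD, n = 3 each). Those shares did not overlap, and the gap between 16IC 3 and EIC 2 was the narrowest. With 3 lines against 3, no exact permutation test of a single value such as this can go below p = 0.1.

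Along the pathway, the first step is hexokinase, which traps glucose as glucose 6-phosphate. Hk1, the housekeeping form, differed little at 432, 497 and 546 CPM in EIC and 425, 452 and 441 CPM in 16IC (log2 -0.16, SE 0.18, adjusted p in edgeR 0.646). Hk2, the form that HIF and growth signals induce, was at 99.3, 52.4 and 105 CPM in EIC and 43.6, 48.5 and 58.1 CPM in 16IC. EIC 2 sat with the 16IC lines for Hk2, and the groups overlapped (log2 -0.77, SE 0.30, adjusted p in edgeR 0.195). Gpi1, which turns glucose 6-phosphate into fructose 6-phosphate, stood at 720, 499 and 716 CPM in EIC and 355, 431 and 493 CPM in 16IC. Its groups missed each other by only a few CPM between EIC 2 and 16IC 3 (log2 -0.60, SE 0.24, adjusted p in edgeR 0.212).

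Phosphofructokinase, the committed step, has a liver, a platelet and a muscle form, and the 3 did not move alike. Platelet-type Pfkp stood at 206, 174 and 197 CPM in EIC and 29.3, 56.1 and 158 CPM in 16IC. All EIC lines were above all 16IC lines, and 16IC 3 was nearer to EIC than to its own group (log2 -1.25, SE 0.59, adjusted p in edgeR 0.274; log2 -2.17 and 0.018 without 16IC 3). Muscle-type Pfkm was at 45.4, 96.5 and 77.9 CPM in EIC and 27.0, 28.8 and 56.8 CPM in 16IC. Liver-type Pfkl was at 335, 192 and 230 CPM in EIC and 172, 244 and 386 CPM in 16IC, with 16IC 3 the highest of all lines and a log2 fold change of 0.08 (SE 0.36).

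By deposited FPKM the make-up of this step differed between the groups. Pfkl was 63.4, 40.7 and 47.5% of the 3 forms in EIC and 71.5, 74.1 and 66.8% in 16IC, or 50.5 ± 11.7% and 70.8 ± 3.68% (SD, n = 3 each). Pfkp was 19.4 ± 0.944% in EIC and 9.38 ± 3.84% in 16IC, and the shares of both forms did not overlap between groups. Pfkm was 30.1 ± 12% and 19.8 ± 2.5%, with overlap. Pfkp and Pfkm each overlap a gene on the opposite strand, Pitrm1 and Senp1, and no source used here says whether the counting used strand, so reads of each pair cannot be told apart.

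**Figure D2:**
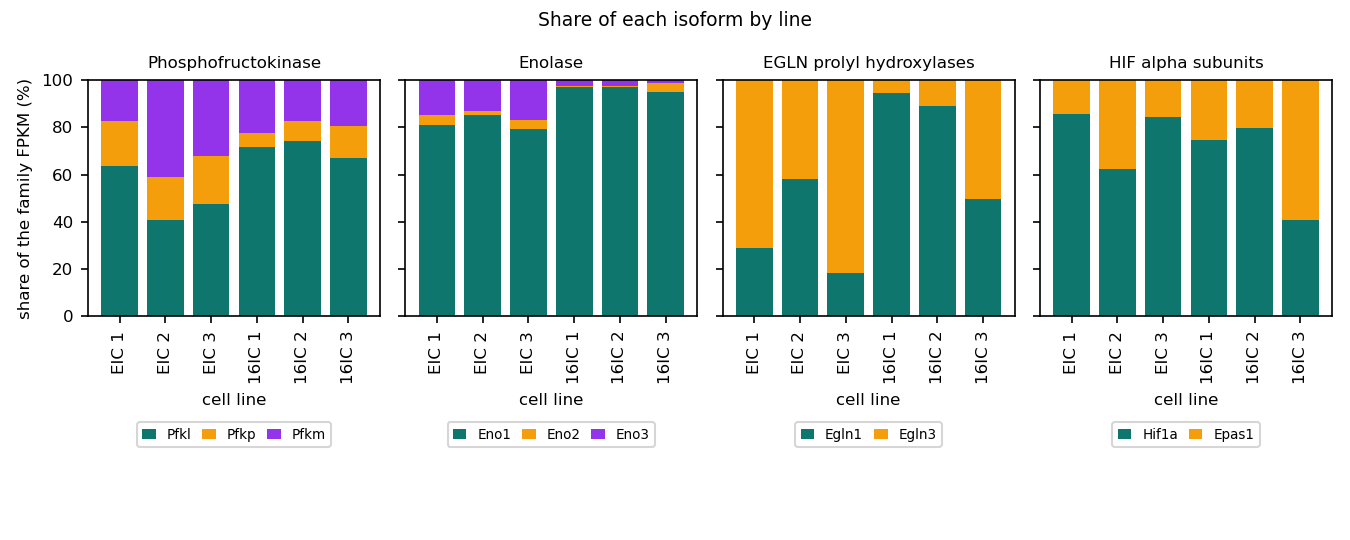
Share of each gene in the summed deposited FPKM of its family, in percent, for each line, for phosphofructokinase, enolase, the EGLN prolyl hydroxylases and the HIF alpha subunits. Pfkl holds 66.8 to 74.1% of phosphofructokinase in 16IC, Eno3 13.2 to 16.7% of enolase in EIC, and 16IC 3 differs from the other 16IC lines in its Egln3 and Epas1 shares.

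Aldolase cleaves the 6-carbon sugar. Aldoa stood at 1836, 1207 and 1942 CPM in EIC and 906, 1141 and 1538 CPM in 16IC, with overlap through EIC 2 and 16IC 3 (log2 -0.48, SE 0.32, adjusted p in edgeR 0.429). The table holds a second row named Aldoa, a neighbouring model with 1.53 to 4.85 CPM, which was left out of the 17. Aldoc, the brain form, was at 33.5, 28.5 and 53.8 CPM in EIC and 16.0, 31.3 and 240 CPM in 16IC. The single high value of 16IC 3 set its positive fold change (log2 1.31, SE 0.99), which was -0.71 without that line. Aldoc made up 12.2% of aldolase FPKM in 16IC 3 and 1.55 to 2.41% in the other 5 lines. Tpi1, which interconverts the resulting triose phosphates, was at 760, 338 and 681 CPM in EIC and 380, 462 and 423 CPM in 16IC, so EIC 2 had the lowest level of all lines.

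The row for Gapdh, the triose dehydrogenase, held only 75 to 1279 counts and lay at 25.6, 4.51 and 13.0 CPM in EIC and 77.0, 20.8 and 19.5 CPM in 16IC. Its mean deposited FPKM of 6.34 stands far under those of its neighbours in the pathway, such as 324 for Pgk1 and 180 for Tpi1. No source used here says how reads that map to several places were handled, so the values of Gapdh are uncertain and are not read further, although the gene stays in the counts over the 17 enzymes.

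Of the enzymes from Pgk1 to pyruvate, Pgk1, Pgam1, Eno1 and Pkm were lower in 16IC without overlap, and Eno2 overlapped. Pgk1, which makes the first ATP, stood at 1108, 707 and 1045 CPM in EIC and 462, 598 and 551 CPM in 16IC (log2 -0.83, SE 0.26, adjusted p in edgeR 0.13). Pgam1, the phosphoglycerate mutase, was at 676, 444 and 588 CPM in EIC and 262, 296 and 427 CPM in 16IC (log2 -0.79, SE 0.28, adjusted p in edgeR 0.16). EIC 2 was the lowest EIC line for both genes, and it remained above every 16IC line.

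Eno1, the common enolase, was at 1642, 1325 and 1315 CPM in EIC and 887, 909 and 1199 CPM in 16IC (log2 -0.52, SE 0.24, adjusted p in edgeR 0.269). A near-identical copy, Eno1b, held counts equal to 35.2 to 40.0% of those of Eno1 in each line, so the level of Eno1 is uncertain, although the copy had a similar log2 fold change of -0.48. Eno2, the neuronal form and a known HIF target, varied most among the enzymes, at 67.5, 22.0 and 59.4 CPM in EIC and 2.35, 4.47 and 40.0 CPM in 16IC. 16IC 1 and 16IC 2 were far below every other line and 16IC 3 lay above EIC 2 (log2 -1.67, SE 1.09, adjusted p in edgeR 0.417; log2 -3.86 and 0.024 without 16IC 3). Pkm, the last enzyme before pyruvate and by deposited FPKM the most abundant of the 17 (mean 534), was at 2988, 3543 and 2841 CPM in EIC and 2331, 2170 and 2572 CPM in 16IC. Its groups lay apart by a small margin (log2 -0.41, SE 0.25, adjusted p in edgeR 0.398), and it is an enzyme for which EIC 2 was the highest line.

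Lactate dehydrogenase turns pyruvate into lactate and back. Ldha, the form that favours lactate, stood at 2026, 1925 and 1613 CPM in EIC and 642, 747 and 1023 CPM in 16IC, that is 1855 ± 215 and 804 ± 197 CPM (SD, n = 3 each). Every EIC line was well above every 16IC line, EIC 2 included, and 16IC 3 was again the highest of its group. The log2 fold change was -1.21 (SE 0.27) with an adjusted p of 0.075 in edgeR, just over the threshold, and it was -1.42 and 0.016 without 16IC 3. Ldhb, the heart form, was low, at 3.82, 4.99 and 3.92 CPM in EIC and 8.31, 4.47 and 25.6 CPM in 16IC (log2 1.59, SE 0.66, adjusted p in edgeR 0.224; log2 0.59 and 0.375 without 16IC 3). By deposited FPKM Ldhb was 0.483 ± 0.0773% of the pair in EIC and 2.97 ± 1.9% in 16IC (SD, n = 3 each), which did not overlap, so Ldha made up at least 95.0% of lactate dehydrogenase mRNA in each line.

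**Figure D3:**
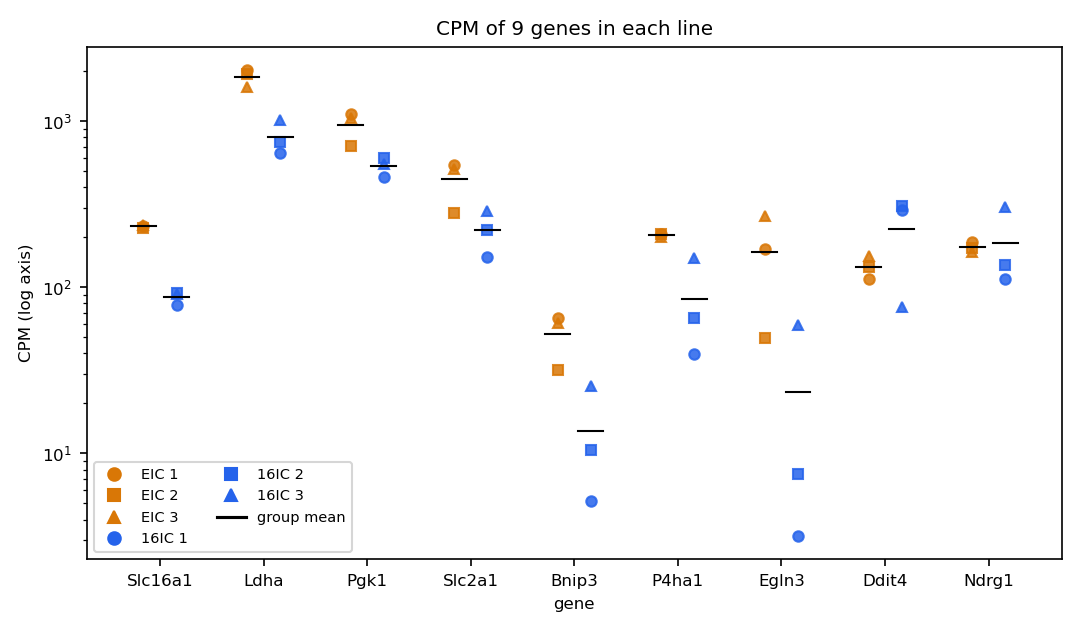
Level in CPM (log axis) of 9 of the genes in each of the 6 lines, with a bar at each group mean. Slc16a1, Ldha, Pgk1, Bnip3 and P4ha1 show no overlap between groups, Egln3 spans the widest range, and Ddit4 is high in 16IC 1 and 16IC 2 and lowest in 16IC 3.

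The 3 switches control how much sugar enters glycolysis or how much pyruvate enters the mitochondrion. Pfkfb3 and Pfkfb4 make and remove fructose 2,6-bisphosphate, the activator of phosphofructokinase, and Pdk1 is a kinase that turns pyruvate dehydrogenase off. None of the 3 passed the edgeR test in 6 lines (0 at an unadjusted p under 0.05, 0 in DESeq2 and 0 in limma-voom), and all 3 did without 16IC 3. In that fit 13.4% of all tested genes passed, 6.82% lower in 16IC. Pfkfb3 was at 27.7, 27.1 and 50.6 CPM in EIC and 9.10, 8.26 and 60.5 CPM in 16IC (log2 -0.44, SE 0.82, adjusted p in edgeR 0.793; log2 -2.02 and 0.028 without 16IC 3). Pfkfb4 was at 7.81, 22.7 and 6.40 CPM in EIC and 0.663, 0.490 and 19.6 CPM in 16IC (log2 -0.83, SE 1.40, adjusted p in edgeR 0.768; log2 -4.40 and 0.028 without 16IC 3). Pdk1 was at 50.0, 38.1 and 44.2 CPM in EIC and 15.4, 23.3 and 39.3 CPM in 16IC (log2 -0.76, SE 0.36, adjusted p in edgeR 0.275; log2 -1.19 and 0.043 without 16IC 3). In each of the 3 genes 16IC 1 and 16IC 2 were below all EIC lines, while 16IC 3 lay within or above the EIC range, with a median of 2.78 on the log2 scale above the mean of the other 16IC lines.

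The HIF alpha subunits were not lower as a pair. Hif1a mRNA was at 128, 75.4 and 209 CPM in EIC and 94.1, 105 and 88.3 CPM in 16IC (log2 -0.52, SE 0.37, adjusted p in edgeR 0.453). Epas1, which encodes HIF-2 alpha, was at 19.1, 41.3 and 35.1 CPM in EIC and 28.9, 24.3 and 115 CPM in 16IC (log2 0.81, SE 0.66, adjusted p in edgeR 0.521). EIC 2 had the least Hif1a and 16IC 3 the most Epas1, and the groups overlapped for both genes. By deposited FPKM Epas1 was 59.1% of the pair in 16IC 3 and 37.8% in EIC 2, and 14.2 to 25.4% in the other 4 lines. HIF alpha is controlled mainly through protein stability, which RNA does not report.

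The 11 HIF targets outside metabolism had a median log2 fold change of -1.28, and 8 were lower and 3 higher in 16IC. The median was -1.78 without 16IC 3, but -0.15 without EIC 1 and -0.17 in limma-voom. None passed the edgeR test in 6 lines, 2 had an unadjusted p under 0.05, DESeq2 called 2 and limma-voom 0. Over all tested genes the same shares were 2.45%, 22.7%, 15.3% and 2.1%. Without 16IC 3, 3 were called lower and 1 higher, against 6.82% and 6.6% of all tested genes. Bnip3, a mitophagy receptor, stood at 65.3, 31.7 and 61.2 CPM in EIC and 5.18, 10.5 and 25.4 CPM in 16IC. All EIC lines lay above all 16IC lines, EIC 2 and 16IC 3 being the nearest (log2 -1.95, SE 0.62, adjusted p in edgeR 0.137; log2 -2.75 and 0.028 without 16IC 3). P4ha1, a subunit of the hydroxylase that matures collagen, stood at 210, 209 and 202 CPM in EIC and 39.9, 65.7 and 149 CPM in 16IC. The EIC lines were nearly equal, the 16IC lines spread over several fold, and the groups did not overlap (log2 -1.28, SE 0.47, adjusted p in edgeR 0.179; log2 -1.97 and 0.014 without 16IC 3). Collagen hydroxylation belongs to matrix building, and the summed level of the mesenchymal markers given above was likewise highest in 16IC 3 among the 16IC lines. That order was not particular to P4ha1, since 25 of the 36 genes had it, against 44.3% of all tested genes. Its relative P4ha2 did not, at 25.9, 43.1 and 35.5 CPM in 16IC. The part of the mesenchymal markers in the levels of P4ha1 was not tested.

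Egln3, the oxygen sensor that HIF itself induces, had one of the widest spans of all, at 169, 49.7 and 270 CPM in EIC and 3.19, 7.53 and 59.4 CPM in 16IC. 16IC 3 lay above EIC 2, so the groups overlapped (log2 -2.80, SE 1.20, adjusted p in edgeR 0.233; log2 -4.93 and 0.031 without 16IC 3). Its sister Egln1, which is the main sensor in most cells, was nearly flat at 92.2, 92.8 and 80.7 CPM in EIC and 73.2, 83.3 and 78.9 CPM in 16IC. By deposited FPKM Egln3 was therefore 71.2, 42.0 and 81.9% of the pair in EIC and 5.56, 10.9 and 50.4% in 16IC.

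The acid-balance and vessel genes had their lowest level in EIC 2. Car9, a surface carbonic anhydrase widely used as a marker of hypoxia, stood at 37.8, 3.43 and 46.6 CPM in EIC and 11, 6.06 and 6.42 CPM in 16IC. EIC 2 was the lowest of all 6 lines, while EIC 1 and EIC 3 were above the rest (log2 -1.90, SE 0.87, adjusted p in edgeR 0.260; log2 -2.44 and 0.048 without EIC 2). An antisense gene overlaps Car9 and held 12 to 42 counts, against at least 57 for Car9. Car12, its relative, was at 5.08, 0.0602 and 3.79 CPM in EIC and 0.663, 0.490 and 1.56 CPM in 16IC. Adm, a peptide hormone that widens vessels, was at 43.9, 0.361 and 10.9 CPM in EIC and 4.10, 3.92 and 11 CPM in 16IC. For Car12 and Adm as for Car9, EIC 2 lay below all other lines. For Adm, EIC 3 was no higher than 16IC 3, and the log2 fold change of -1.53 was 0.14 without EIC 1. P4ha2 shared that low value of EIC 2, at 47.0, 5.59 and 30.5 CPM in EIC and 25.9, 43.1 and 35.5 CPM in 16IC. Vegfa, the vessel growth factor, was at 211, 95.9 and 194 CPM in EIC and 109, 201 and 184 CPM in 16IC, with no group difference to see (log2 -0.02, SE 0.37).

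Ndrg1 and Ddit4 were not lower in 16IC. Ndrg1, a stress-induced gene, was at 188, 172 and 163 CPM in EIC and 113, 135 and 303 CPM in 16IC (log2 0.08, SE 0.39, -0.49 without 16IC 3). Ddit4, an inhibitor of mTORC1 that answers to several stresses besides low oxygen, was at 112, 133 and 154 CPM in EIC and 293, 307 and 76.3 CPM in 16IC. 16IC 1 and 16IC 2 were the highest lines and 16IC 3 the lowest, unlike Egln3, Bnip3 and P4ha1, for which 16IC 3 was the highest 16IC line (log2 0.76, SE 0.51, adjusted p in edgeR 0.428; log2 1.17 and 0.019 without 16IC 3). It was the one gene of the 36 called higher in 16IC in any fit run here.

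**Figure D4:**
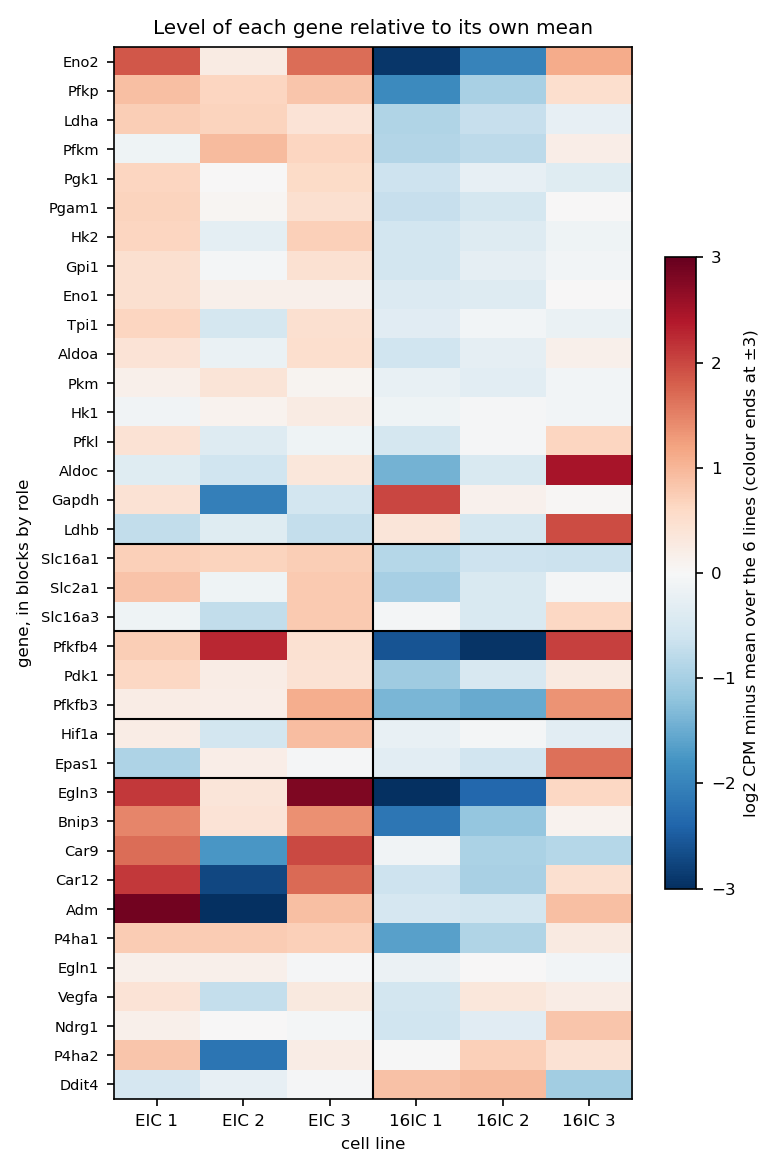
Log2 CPM of each of the 36 genes (rows, in blocks by role) minus its mean over the 6 lines (columns), as a colour that ends at ±3. 16IC 1 and 16IC 2 are blue for most genes, EIC 1 and EIC 3 red, and EIC 2 and 16IC 3 differ from their groups.

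The order of the lines was shared by much of the list. EIC 1 was the highest of the 6 lines for 16 of the 36 genes, against 11.2% of all tested genes, and EIC 3 for 8, against 15.8%. 16IC 1 was the lowest for 21 of the 36, against 16% of all tested genes, and EIC 2 was the lowest for 9, against 20.9%. EIC 2 was below both other EIC lines in 24 of 36 genes (66.7%), against 38.7% of all tested genes, and 16IC 3 was above both other 16IC lines in 25 of 36 (69.4%), against 44.3%. The 8 markers of serum and stress response summed lowest in EIC 2 among the EIC lines, at 351 CPM against 787 and 723 CPM. Among the 16IC lines they summed lowest in 16IC 3, at 295 CPM against 348 and 548 CPM, unlike the 25 genes above. Their members were split. Fos (1.54, 1.86 and 1.43 CPM in EIC) and Egr1 (48.8, 60.7 and 41.9 CPM) were highest in EIC 2 among the EIC lines, and the remaining markers lowest. Fos and Jun were highest in 16IC 3 among the 16IC lines, and Egr1, Chac1, Trib3 and Asns lowest. The summed level of 10 proliferation markers was 1471, 1823 and 1086 CPM in EIC and 1647, 1112 and 379 CPM in 16IC. Their part in the order of the lines was not tested.

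Glycolytic enzymes and HIF targets were then set side by side in each line, as the median over genes of log2 CPM minus the gene's mean over the 6 lines. For the 17 enzymes the median was 0.47, 0.0004 and 0.47 in EIC and -0.55, -0.38 and 0.02 in 16IC. For the 11 HIF targets it was 0.84, -0.25 and 0.71 in EIC and -0.54, -0.56 and 0.28 in 16IC. Both sets were thus high in EIC 1 and EIC 3, low in 16IC 1 and 16IC 2, and between these in 16IC 3. EIC 2 was the EIC line with the lowest median in both.

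The enzyme median minus the HIF target median was -0.37, 0.25 and -0.25 in EIC and -0.005, 0.18 and -0.26 in 16IC. The group means of this gap were -0.12 ± 0.33 in EIC and -0.03 ± 0.22 in 16IC (SD, n = 3 each), a difference smaller than the spread between lines. The gap of single lines was not stable: that of EIC 3 was 0.29 without EIC 2, and with a mean over genes in place of the median EIC 1 was at -0.68, EIC 2 at 0.80 and 16IC 3 at 0.18. The sets differed more in span than in order. The highest line exceeded the lowest by a median of 2.40-fold over the 17 enzymes (1.29 to 28.7), close to the 2.41-fold of all tested genes without a 0, and by 8.40-fold over the 11 HIF targets (1.27 to 122). EIC 2 was the lowest line for 5 of these 11, with 1 count for Car12 and 6 for Adm. The span of the HIF targets thus rests in part on 1 line and on few counts, although Egln3, lowest in 16IC 1, spanned 84.6-fold. In EIC 2, the line with the largest positive gap, 7 of the 11 HIF targets and 11 of the 17 enzymes were below both other EIC lines, by medians of -1.08 and -0.52 on the log2 scale over all members of each set. Of all tested genes, 38.7% were below both other EIC lines in EIC 2.

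**Figure D5:**
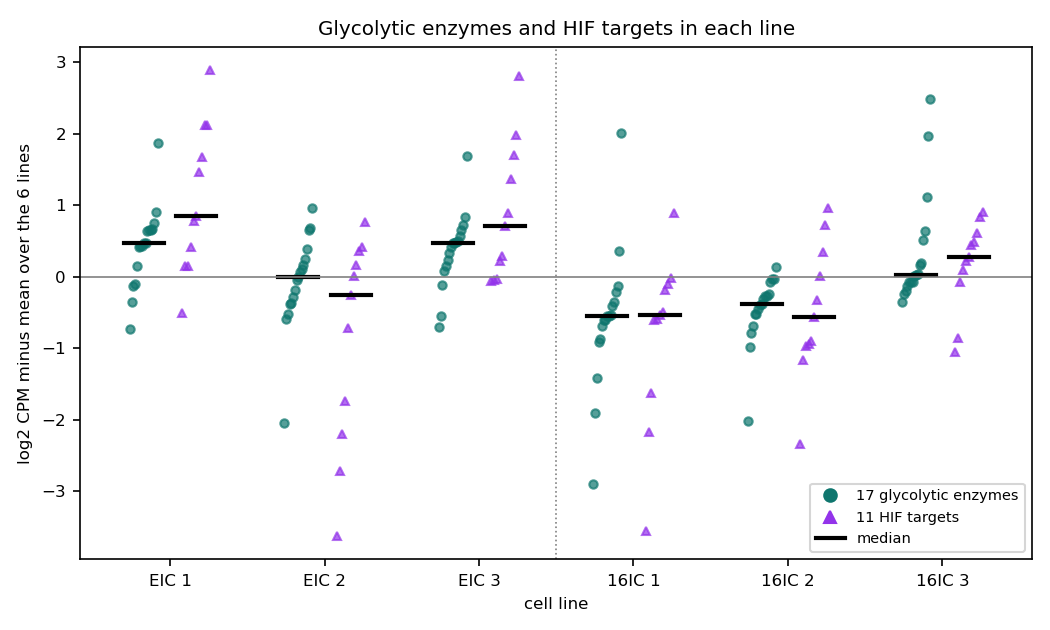
Log2 CPM minus the gene's mean over the 6 lines for the 17 glycolytic enzymes (circles) and the 11 HIF targets (triangles) in each line, with a bar at the median. Both medians are above 0 in EIC 1 and EIC 3 and below 0 in 16IC 1 and 16IC 2, and the HIF targets of EIC 2 reach far below its enzymes.

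Other genes of the pathway were read from 4 lists with 91 names, of which 74 were tested. EdgeR called 4 of the 74, 3 lower and 1 higher in 16IC, where 2.45% of all tested genes were called. No gene of these lists was called by edgeR when EIC 1, EIC 3, 16IC 1 or 16IC 2 was left out. Of 23 other genes of glycolysis and pyruvate handling, 2 were called lower and none higher, but only 9 of the 23 had a lower value and the median log2 fold change was 0.13. The groups did not overlap for 3 lower and 5 higher genes of this list, against 14.2% and 17.2% of all tested genes. Without 16IC 3 edgeR called 2 lower and 2 higher, against 6.82% and 6.6% of all tested genes. Eno3, the muscle enolase, was at 98.3, 66.5 and 89.9 CPM in EIC and 7.71, 7.71 and 5.64 CPM in 16IC, with all 3 16IC lines alike. Eno3 fell by 3.59 on the log2 scale (SE 0.26, adjusted p in edgeR 0.018), and by deposited FPKM its share of the 3 enolases was 15.0 ± 1.76% in EIC and 2.18 ± 0.69% in 16IC (SD, n = 3 each). Pdhb, a subunit of the pyruvate dehydrogenase that Pdk1 inhibits, was at 88.6, 101 and 86.7 CPM in EIC and 37.8, 41.7 and 48.4 CPM in 16IC and fell by 1.11 (SE 0.17, adjusted p in edgeR 0.041). Ldhd, a D-lactate dehydrogenase, was at 4.05, 15.4 and 7.21 CPM in EIC and 232, 584 and 60.5 CPM in 16IC, without overlap and with the lowest 16IC value in 16IC 3. Its log2 fold change of 5.04 (SE 0.996) had an adjusted p of 0.059 in edgeR.

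Of 8 pentose phosphate genes none passed the edgeR test (2 at an unadjusted p under 0.05, 2 in DESeq2 and 0 in limma-voom). Over all tested genes the same shares were 2.45% in edgeR, 22.7% unadjusted, 15.3% in DESeq2 and 2.1% in limma-voom. Tkt, the transketolase that links this branch to glycolysis, was at 537, 526 and 895 CPM in EIC and 242, 214 and 340 CPM in 16IC (log2 -1.30, SE 0.31, adjusted p in edgeR 0.084). Of 11 genes that regulate HIF none passed the edgeR test either (0 at an unadjusted p under 0.05, 0 in DESeq2 and 0 in limma-voom). Vhl, the ubiquitin ligase subunit that binds hydroxylated HIF alpha, had a log2 fold change of -0.35 (SE 0.21). Egln3, described above, is not among these 11 genes.

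Of 32 other HIF targets 24 had a value lower in 16IC, with a median log2 fold change of -0.61, and edgeR called 1 lower and 1 higher (13 at an unadjusted p under 0.05, 12 in DESeq2 and 2 in limma-voom). Of all tested genes, 50.3% were lower in 16IC and edgeR called 2.45%. An unadjusted p under 0.05 was met by 22.7% of them, and DESeq2 called 15.3% and limma-voom 2.1%. The groups did not overlap for 12 lower and 2 higher genes of this list, against 14.2% and 17.2% of all tested genes. Without 16IC 3 edgeR called 7 lower and 3 higher, against 6.82% and 6.6% of all tested genes. Errfi1, a feedback inhibitor of EGFR and ErbB2 as well as a listed HIF target, was at 493, 367 and 368 CPM in EIC and 171, 165 and 120 CPM in 16IC and fell by 1.43 (SE 0.23, adjusted p in edgeR 0.043). Edn1, the vasoconstrictor endothelin, was at 0.513, 0.662 and 0.249 CPM in EIC and 8.25, 4.16 and 8.69 CPM in 16IC and rose by 3.87 (SE 0.56, adjusted p in edgeR 0.039). Gbe1, the glycogen branching enzyme, was at 70.3, 36.6 and 57.0 CPM in EIC and 19.6, 21.5 and 19.9 CPM in 16IC (log2 -1.42, SE 0.27, adjusted p in edgeR 0.056). Bhlhe41, a repressor of the clock and of HIF, was at 35.9, 80.8 and 90.4 CPM in EIC and 235, 294 and 223 CPM in 16IC (log2 1.86, SE 0.37, adjusted p in edgeR 0.060). For these 4 genes the groups did not overlap and 16IC 3 was with its own group.

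Upstream, Erbb2 mRNA was at 87.0, 67.7 and 79.7 CPM in EIC and 146, 149 and 102 CPM in 16IC, without overlap (log2 0.76, SE 0.21, adjusted p in edgeR 0.108). A row for mouse Erbb2 need not count a transgene mRNA in full, and no source used here names the species of either transgene. Myc was at 126, 77.4 and 74.4 CPM in EIC and 102, 118 and 24.8 CPM in 16IC (log2 -0.18, SE 0.57, adjusted p in edgeR 0.877). Each 16IC line, 16IC 3 included, had more Erbb2 mRNA than any EIC line, and 16IC 3 had the least Myc of the 6 lines. The part of Erbb2 and Myc in the glycolytic levels was not tested.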

How the data were processed

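Messenger RNA of 6 mouse cell lines was measured, 3 per group. Trimmomatic, STAR, HTSeq, edgeR, limma, GRCm38 and mm10 are named per the submitters' processing notes. No source used here gives their versions, the strand setting or the annotation release. Deposited for each gene and line were the authors' read count, a normalised signal and an FPKM, beside the authors' log2 fold change and p-value. Signals were not used.

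Counts were filtered with filterByExpr (minimum count 10, 13698 genes left), scaled by TMM and tested by edgeR 4.0.16 (quasi-likelihood, R 4.3.3), 16IC against EIC, with Benjamini-Hochberg adjustment over all tested genes and a threshold of 0.05. The scripts were tested on simulated data. Alternatives were DESeq2 1.42.0, limma-voom (limma 3.58.1), DESeq2 size factors, other filters and leaving out each line. Centred levels are log2 CPM with a prior count of 2. The genes and lists were chosen with earlier results of these data known. All 36 genes could be named, with up to 4 genes of each pathway list by smallest p and any called, and Erbb2 and Myc. Vhl was named under this rule. Marker genes named individually were picked after their values were seen. Of Aldoa, the row with more counts was used.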

Additional observations from a re-analysis of the deposited data

How the results depend on the processing

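The count of genes called over all tested was 223 without a filter and 2098 in DESeq2, and 0 to 1913 over the fits that left out 1 line (1913 without 16IC 3, 5 without 16IC 1, 282 without EIC 2, and 0 without EIC 1, EIC 3 or 16IC 2, where 2627, 2341 and 2251 genes had an unadjusted p under 0.05). Of the 36 genes, DESeq2 called 5, all lower, and the fits without 1 line called 0 to 12, with 0 to 11 lower and 0 to 1 higher. The 0 came without EIC 1, EIC 3, 16IC 1 or 16IC 2, where 3, 3, 3 and 4 of the 36 had an unadjusted p below 0.05 in edgeR, and the fit without EIC 2 called 2, Slc16a1 and Car9. Of the 74 tested pathway list genes DESeq2 called 19, where it called 15.3% of all tested genes. The fits without 1 line, in which other genes can pass the filter, called 0 to 17 pathway list genes. The 17 came without 16IC 3, where 13.4% of all tested genes were called. Averaging 16IC 1 and 16IC 2 to 1 sample, chosen after seeing the data, left 0 genes called in all (2257 at an unadjusted p under 0.05), 0 of the 36 (5 unadjusted) and 0 pathway list genes, in a fit with 1 sample fewer.

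The median of the HIF targets was -0.17 in limma-voom and -1.78 to -0.15 without 1 line, that of the switches -2.02 to -0.29, and that of the HIF subunits -0.37 to 0.39, while that of the enzymes stayed between -0.73 and -0.44. The enzyme minus HIF target gap taken as a mean over genes was -0.68 in EIC 1, 0.80 in EIC 2 and 0.18 in 16IC 3. It was 0.72 in EIC 2 without Egln1 and Egln3, and -0.32 to 0.29 in EIC 3 without 1 line. Leaving out Gapdh or keeping both rows of Aldoa, chosen after seeing the data, moved no gap by more than the spread between lines.

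Of the 36 genes, 8 changed direction under some setting, and none of these was called in any fit. In limma-voom Slc16a3 was at 0.077, Vegfa at 0.014 and Ndrg1 at -0.060, and with 16IC 1 and 16IC 2 averaged Slc16a3 was at 0.15 and Vegfa at 0.017. Without 1 line, values ran from -0.31 to 0.21 for Vegfa, -2.20 to 0.14 for Adm, -0.28 to 0.34 for Pfkl, -0.16 to 0.93 for P4ha2, -0.40 to 0.56 for Slc16a3, -0.71 to 1.81 for Aldoc, -0.26 to 1.17 for Epas1 and -0.49 to 0.33 for Ndrg1. The cause of these changes was not tested. Genes under about 1 CPM, such as Slc16a3 and Car12 in several lines, rest on few counts. No paired analysis was possible because the labels give no numbers that tie a line of one group to a line of the other.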
